A study of Mus musculus with 8 samples.

Results

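The genes described here are those of transforming growth factor beta (TGF-beta) and bone morphogenetic protein (BMP) signalling in mouse hippocampus with and without Mbd2, a protein that binds methylated DNA. The rule that chose the members uses symbols and no measured value, although it was written with earlier results of these data known. It takes the listed genes whose symbols begin with Tgfb followed by 1, 2, 3 or r, with Bmp or Gdf followed by a numeral (or Bmp by r), with Inha or Inhb, with Acvr, or with Smad followed by a numeral, together with Wfikkn1, Wfikkn2, Fst, Nog, Chrd and Sostdc1. This rule took 55 of the 19201 listed genes, namely 24 ligands, 6 secreted antagonists, 13 receptors, 8 Smads and 4 other genes whose symbols match. RNA sequencing covered 4 wild-type and 4 Mbd2-/- libraries of whole hippocampus, all from C57BL/6 mice aged 10 to 12 weeks that were bred from heterozygous parents. Each library pooled the hippocampi of 2 mice, so a replicate is a pool and not an animal, and mice of both sexes were used. The knockout is constitutive, so every cell of the animal carries it.

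TGF-beta family ligands are secreted dimers that bring together type I and type II receptor kinases on the cell surface. The type I receptor then phosphorylates Smad proteins, which enter the nucleus with Smad4 and regulate target genes. TGF-betas and activins act mainly through Smad2 and Smad3, and BMPs through Smad1, Smad5 and Smad9. Secreted antagonists bind the ligands before they reach a receptor, and Smad6 and Smad7 block the signal inside the cell. In the brain these ligands regulate neural stem cells, synapses and blood vessels, and the choroid plexus, the epithelium that makes cerebrospinal fluid, is one source of them and of their antagonists.

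Values are normalized counts, meaning reads on a gene divided by the size factor of the library, and libraries are listed from replicate 1 to 4. Recovered reads on genes ran from 8439570 to 23790825 in wild-type and from 8087750 to 14020765 in Mbd2-/- libraries. Mbd2 itself had 295, 363, 371 and 354 normalized counts in wild-type and 244, 240, 339 and 217 in Mbd2-/- libraries. Its log2 fold change was -0.43 ± 0.12 (SE, adjusted p = 0.0174 by limma, exact two-sided permutation p = 0.0571), and Mbd2-/- replicate 3 overlapped the wild-type libraries. It was not called without wild-type replicate 3 or without Mbd2-/- replicate 1 or 2. These counts are summed over the gene and do not separate the exons that the allele lacks from those that it keeps. Mbd2-/- replicate 4 stood apart, differing from the other Mbd2-/- libraries by 8.39 to 14.1 times the counting variance per gene, against 3.46 to 5.53 among those 3 and 1.92 to 4.85 among wild-type libraries.

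Among the members, the secreted antagonists Wfikkn2, Sostdc1 and Fst, the inhibitory Smad6 and the ligand Tgfb3 were higher in Mbd2-/- hippocampi, while the activin receptors Acvr1b and Acvr2b, their effector Smad3, the ligand Bmp3 and the protease gene Bmp1 were lower. A gene was called when its Benjamini-Hochberg adjusted p from limma was under 0.05, over the 14504 genes with a mean of at least 10 normalized counts. Of the 45 members that entered the test, 5 were higher, 5 lower and 35 not called, or 22.2% called. Over all tested genes 22.0% were called, 12.0% higher and 10.0% lower, so in this test the members were called about as often as other genes. Their median log2 fold change was -0.0023, beside -9.1e-05 for all tested genes, and the genotypes did not overlap for 11 of the 45 members (24.4%) against 23.6% of all tested genes. Without Mbd2-/- replicate 4 the count was 6 higher and 6 lower while 35.5% of all genes were called, and the 10 calls were kept, with Bmp6 and Bmpr2 added. The higher members fell to 2 without wild-type replicate 1 or 3 and to 3 when wild-type replicate 2, Mbd2-/- replicate 1 or Mbd2-/- replicate 2 was left out, in fits that called 8.07% to 9.51% of all genes higher. The lower members fell to 3 without wild-type replicate 3 or 4 or Mbd2-/- replicate 1, in fits that called 6.05% to 6.33% of all genes lower. The lowest genotype mean among the 45 was 11.8 normalized counts, of Bmp5 in wild-type, so none entered the test through a single genotype. No exon of the 10 called members overlapped an exon of another gene in GENCODE vM1.

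**Figure D1:**
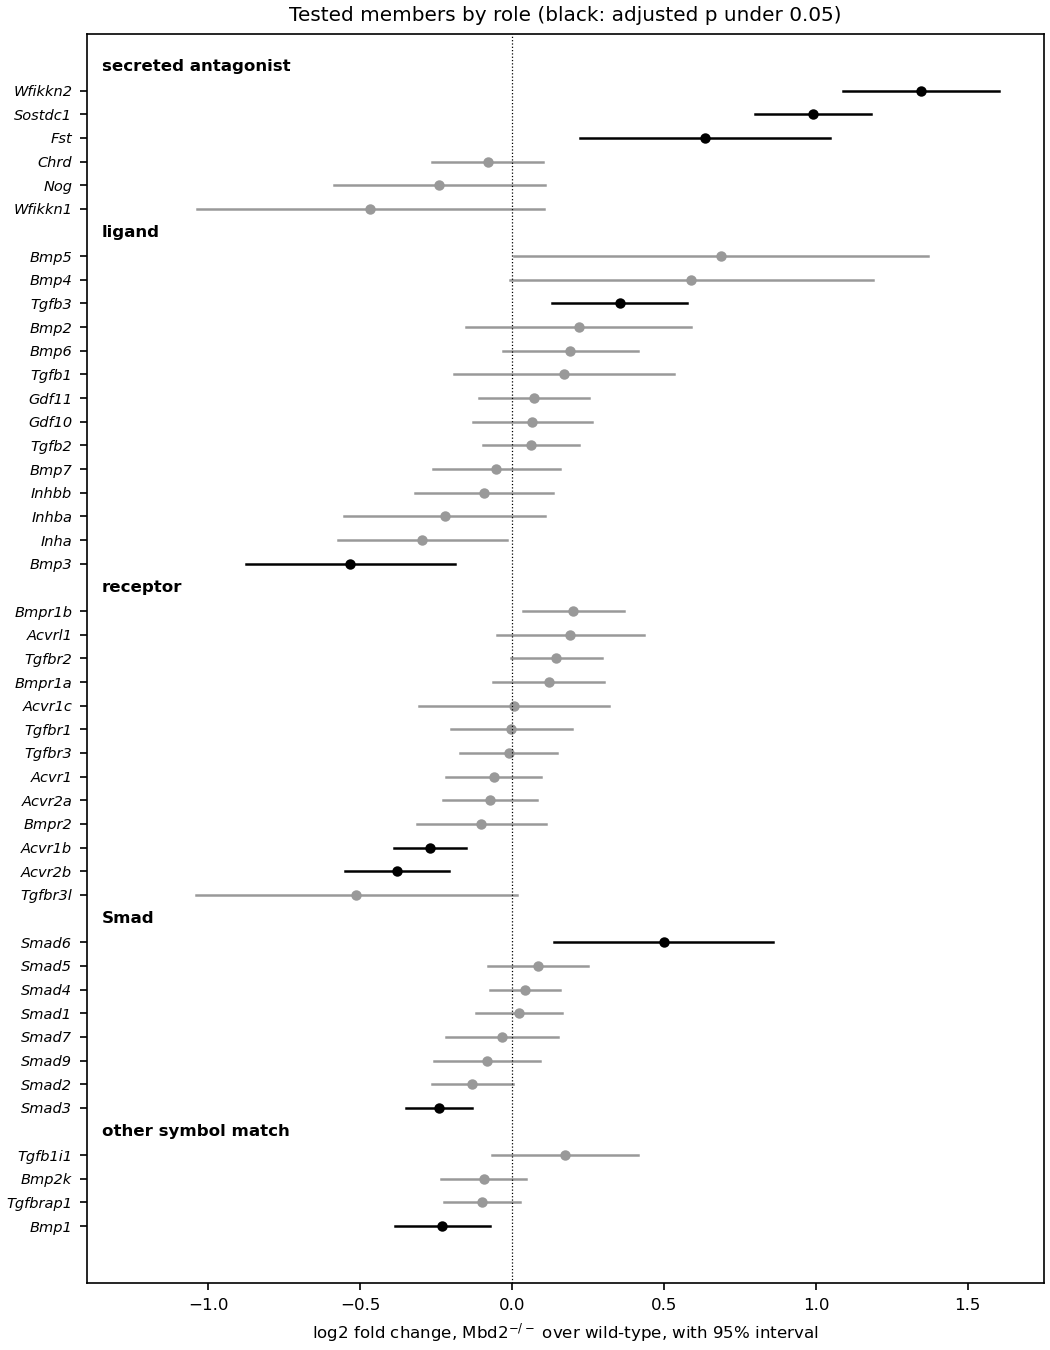
Log2 fold change of Mbd2-/- over wild-type (x axis) with its 95% interval for the 45 tested members, grouped by role, with 4 libraries in each genotype. Black points mark an adjusted p under 0.05; of these, Wfikkn2 and Sostdc1 lie farthest from 0 and Acvr1b, Smad3 and Bmp1 closest.

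Wfikkn2, Sostdc1, Acvr1b, Acvr2b and Smad3 were called in all 11 alternatives that kept every library and with each of the 8 libraries left out, and Wfikkn2 and Sostdc1 also when a change beyond 1.2-fold was required. Promoter sequence of 4 of these 5 is shown because Mbd2 binds methylated CG dinucleotides, which are printed in capitals. Each window is taken from the 250 bases before the gene start in RefSeq (GRCm38.p6), placed on mm9 by an exact match and written 5′ to 3′ on the strand of the gene. For Wfikkn2 only the 122 bases outside the exons of GENCODE vM1 are printed, since the RefSeq start lies 3426 bases inside that gene model. The remaining gene is Sostdc1.
Wfikkn2, chr11:94104022-94104143, minus strand: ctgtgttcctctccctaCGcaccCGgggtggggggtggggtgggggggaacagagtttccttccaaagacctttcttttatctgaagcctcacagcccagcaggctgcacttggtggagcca
Acvr1b, chr15:101004253-101004502, plus strand: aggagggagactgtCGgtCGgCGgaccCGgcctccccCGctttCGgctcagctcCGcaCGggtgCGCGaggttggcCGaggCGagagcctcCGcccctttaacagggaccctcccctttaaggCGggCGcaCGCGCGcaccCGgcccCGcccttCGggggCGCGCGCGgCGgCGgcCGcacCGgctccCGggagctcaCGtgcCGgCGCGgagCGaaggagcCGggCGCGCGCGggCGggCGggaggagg
Acvr2b, chr9:119311046-119311295, plus strand: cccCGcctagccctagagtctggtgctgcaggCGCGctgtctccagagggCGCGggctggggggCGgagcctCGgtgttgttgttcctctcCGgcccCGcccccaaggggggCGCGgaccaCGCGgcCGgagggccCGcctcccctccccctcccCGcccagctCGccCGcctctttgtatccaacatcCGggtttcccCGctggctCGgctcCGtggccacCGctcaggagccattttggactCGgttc
Smad3, chr9:63605802-63606051, minus strand: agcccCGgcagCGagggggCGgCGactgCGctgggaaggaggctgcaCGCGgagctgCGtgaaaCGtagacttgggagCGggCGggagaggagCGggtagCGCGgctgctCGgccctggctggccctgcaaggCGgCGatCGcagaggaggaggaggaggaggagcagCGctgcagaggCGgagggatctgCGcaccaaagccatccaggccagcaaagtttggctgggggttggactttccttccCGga

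The windows of the lower genes Acvr1b, Acvr2b and Smad3 hold 42, 24 and 22 CG dinucleotides in 250 bases, where the median of the 32851 promoters in the table is 6. As many or more are found in 0.865%, 12.0% and 14.8% of those promoters. The whole Wfikkn2 window holds 3, which 71.0% of the promoters reach or exceed. It lies inside the vM1 gene model with 128 of its 250 bases in exons. The sequence before the vM1 start of Wfikkn2 was not counted. The letters CAGAC or GTCTG, the core that Smad3 and Smad4 bind, were searched on both strands and occur once in the Acvr2b window, in none of the other 3, and in 42.2% of all promoters. These are counts of letters in a window. The methylation of the windows and the binding of proteins to them were not analysed here.

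Wfikkn2 encodes a secreted protein with several protease inhibitor-like domains that binds and neutralises myostatin and Gdf11. It had 57.0, 51.2, 55.6 and 53.1 normalized counts in wild-type and 112, 153, 150 and 146 in Mbd2-/- libraries. Every Mbd2-/- library was above every wild-type library, and Mbd2-/- replicate 1 was the lowest of its group. The means were 54.2 ± 2.58 and 140 ± 18.8 (SD, n = 4), a log2 fold change of 1.35 ± 0.12 (SE, adjusted p = 4.39e-06 by limma) or 2.54-fold with a 95% interval of 2.13 to 3.04. The exact two-sided permutation p of 0.0286 is the smallest that 4 libraries against 4 can give. With any 1 library left out the log2 fold change was between 1.30 and 1.45. Its close relative Wfikkn1 was present at 9.61 to 23.7 normalized counts per library and was not called (-0.47 ± 0.27, adjusted p = 0.231 by limma, 95% interval -1.04 to 0.11).

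Sostdc1, a secreted antagonist of BMPs that also binds Wnt co-receptors, had 108, 122, 111 and 114 normalized counts in wild-type and 216, 242, 244 and 207 in Mbd2-/- libraries. The genotypes were far from overlapping. Its log2 fold change was 0.99 ± 0.09 (SE, adjusted p = 5.18e-06 by limma), or 1.99-fold with a 95% interval of 1.74 to 2.27. Fst encodes follistatin, which sequesters activins, and had 21.0, 21.8, 21.9 and 28.7 normalized counts in wild-type and 29.4, 36.6, 47.8 and 34.6 in Mbd2-/- libraries. The highest wild-type and the lowest Mbd2-/- library nearly met. Its log2 fold change of 0.64 ± 0.19 (SE) had an adjusted p of 0.0282 by limma, and the call was lost without wild-type replicate 1, 2 or 3, without Mbd2-/- replicate 2 or 3, with DESeq2 and with the length trend removed. The BMP antagonists Nog (noggin, -0.24, 95% interval -0.59 to 0.11) and Chrd (chordin, -0.08, -0.26 to 0.10) were not called, although Chrd had the highest level per length of the antagonists at 8.67 ± 0.66 RPKM in wild-type, that is reads per kilobase of transcript scaled to a common library total. On that scale Sostdc1 moved from 5.14 ± 0.30 to 10.2 ± 0.76 RPKM and Wfikkn2 from 1.22 ± 0.05 to 3.12 ± 0.39 RPKM (SD, n = 4), while Nog had 3.24 ± 0.72 in wild-type.

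**Figure D2:**
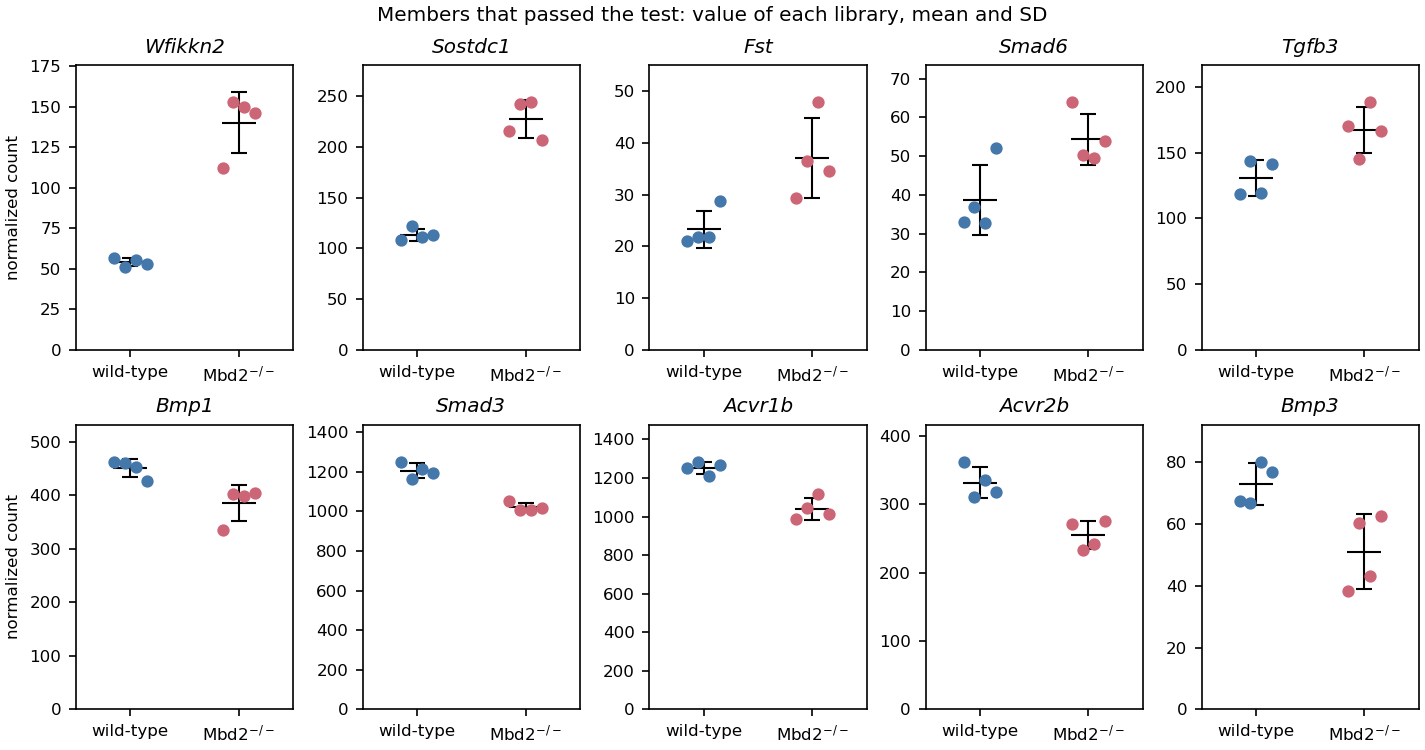
Normalized counts (y axis, from 0) of the 10 called members in each of the 4 wild-type and 4 Mbd2-/- libraries, with the mean and SD as bars. The genotypes do not overlap for 9 of the 10, and for Smad6 the wild-type library at 52.1 lies above Mbd2-/- libraries at 50.3 and 49.4. The 10 were chosen by a test on these same values, so the lack of overlap is not separate evidence. Of all tested genes, called or not, 23.6% do not overlap.

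Markers of the choroid plexus moved with these antagonists. All 21 tested markers of this epithelium were higher in Mbd2-/- libraries, among them the defining genes Ttr (log2 fold change 1.32), Folr1 (1.14), Kcnj13 (0.79), Otx2 (0.63) and Kl (0.56), and their summed level was 25100 to 26811 normalized counts in wild-type and 48243 to 54698 in Mbd2-/- libraries. The mean log2 level of the 21 markers was higher by 0.84 in Mbd2-/- libraries, a smaller difference than that of Wfikkn2 or Sostdc1. Single markers ran from 0.55 to 1.32, a range in which Sostdc1 (0.99) lies and which ends close to Wfikkn2 (1.35). Levels relative to the marker mean therefore depend on which markers are averaged. Relative to this mean, Wfikkn2 lay at -1.65, -1.73, -1.58 and -1.71 in wild-type and at -1.46, -1.05, -1.01 and -1.11 in Mbd2-/- libraries on the log2 scale. These relative levels did not overlap and differed by 0.51. Sostdc1 relative to the markers lay at -0.61 ± 0.10 and -0.46 ± 0.14 (SD, n = 4), a difference of 0.16, and there the genotypes overlapped. These are descriptions without a test, and the part of the choroid plexus markers in the changes of the members was not tested. In bulk tissue, more or fewer cells of a type cannot be told apart from more or less RNA per cell.

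**Figure D3:**
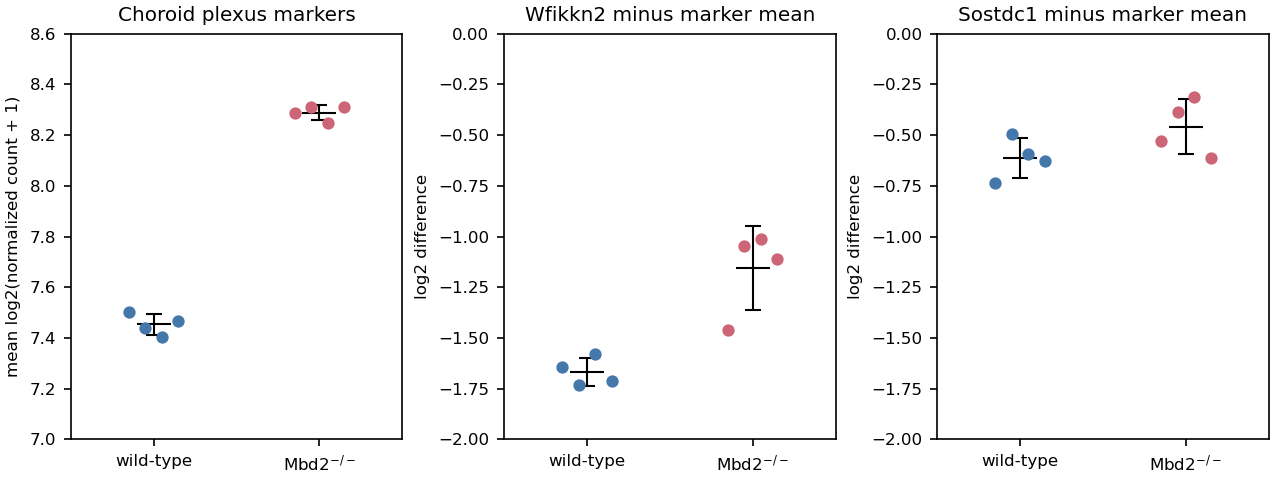
Left, mean log2(normalized count + 1) of the 21 choroid plexus markers in each library; middle and right, the log2 level of Wfikkn2 and Sostdc1 minus that mean, with mean and SD of 4 libraries per genotype. The marker mean is higher in all 4 Mbd2-/- libraries, the Wfikkn2 difference stays separate between genotypes (lowest Mbd2-/- value -1.46, highest wild-type value -1.58), and the Sostdc1 difference overlaps.

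Genes of other cell type lists were called too, beside 12.0% of all tested genes higher and 10.0% lower. Of the thalamus markers 0 of 12 were higher and 9 lower, with Tcf7l2 at -0.49, Gbx2 at -1.51 and Lef1, which was not called, at -0.23, and a summed level of 5558 to 5700 normalized counts in wild-type and 3961 to 4812 in Mbd2-/- libraries. Microglia markers were higher for 6 of 9 (5314 to 5582 against 6061 to 6847 summed), with Cx3cr1 at 0.20 and Tmem119 at 0.32 called and P2ry12 at 0.21 not called. Of 10 endothelial markers 3 were higher (2822 to 2950 against 3162 to 3295), with Cldn5 at 0.38 called and Pecam1 at 0.17 and Cdh5 at -0.15 not called. Meningeal markers went both ways, 4 higher and 2 lower of 13 (2830 to 2929 against 3533 to 4216), and of their defining genes Aldh1a2 (-0.44) was lower while Slc6a13 (-0.35), Slc22a6 (-0.39), Foxc1 (-0.26) and Lum (-0.03) were not called. The higher ones were the further meningeal markers Col1a1 (1.37), Ogn (0.89), Col1a2 (0.56) and Igf2 (0.43). Hippocampal neuron markers were present at high levels in all libraries, 2 higher and 3 lower of 13 (18209 to 18929 against 17485 to 18051), with Prox1 (-0.20), Wfs1 (-0.31) and Fibcd1 (-0.29) lower, Bok (0.51) and Spink8 (0.31) higher and Neurod6 (-0.01) not called. No defining marker of any list was at 0. The part of these lists in the values of the members was not tested.

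Among the receptors, levels per length spanned a wide range. Bmpr2, the type II receptor of BMPs, had the highest level of all members with 78.5 ± 2.43 RPKM in wild-type and 73.3 ± 14.8 RPKM in Mbd2-/- hippocampi (SD, n = 4). The next receptors in wild-type were Acvr1b, the type I activin receptor, at 30.3 ± 0.91 and 24.9 ± 1.13, and Acvr2b, a type II receptor of activins and Gdf11, at 15.2 ± 1.01 and 11.6 ± 1.05. In Mbd2-/- libraries Acvr2b lay below Bmpr1a (14.7 ± 2.09) and Acvr1 (12.7 ± 0.95). This order depends on the longest GENCODE vM1 transcripts, of 3507 bases for Bmpr2, 3277 for Acvr1b and 1729 for Acvr2b. The annotation behind the counts is not given, so lengths that differ from these would change the order. Of the 13 receptors, Acvr1b and Acvr2b were called, both lower (15.4% called). Of all tested genes 22.0% were called and 10.0% were called lower.

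Acvr1b had 1253, 1285, 1210 and 1267 normalized counts in wild-type and 986, 1043, 1119 and 1014 in Mbd2-/- libraries. All 4 Mbd2-/- libraries were below all wild-type libraries, and the log2 fold change was -0.27 ± 0.06 (SE, adjusted p = 0.00315 by limma). Acvr2b had 363, 311, 336 and 319 in wild-type and 271, 233, 242 and 276 in Mbd2-/- libraries, again without overlap, with a log2 fold change of -0.38 ± 0.08 (SE, adjusted p = 0.00394 by limma). The other activin type II receptor, Acvr2a, was not called (-0.07, 95% interval -0.23 to 0.08), nor were Tgfbr1 (0.00, -0.20 to 0.20) and Tgfbr2 (0.15, 0.00 to 0.30), the receptors of TGF-beta itself. Tgfbr2 nevertheless had 276 to 296 normalized counts in wild-type and 303 to 346 in Mbd2-/- libraries, without overlap. Bmpr2 had 3449, 3432, 3385 and 3628 in wild-type and 3017, 3100, 2765 and 4229 in Mbd2-/- libraries. Mbd2-/- replicate 4 was its highest library and the other 3 were its lowest. The log2 fold change of Bmpr2 was -0.10 with all libraries and not called, and -0.23 without replicate 4 (adjusted p = 2.84e-04 by limma). Of the members that were not called, the BMP type I receptor Bmpr1b came closest to the threshold (0.20 ± 0.08 SE, adjusted p = 0.0767 by limma).

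Smad3 and Smad6 were the called Smads, in opposite directions. Smad3 had 1252, 1165, 1213 and 1197 normalized counts in wild-type and 1053, 1010, 1007 and 1015 in Mbd2-/- libraries, and the genotypes did not overlap. Its log2 fold change was -0.24 ± 0.05 (SE, adjusted p = 0.00417 by limma). Smad2, the other Smad of the activin and TGF-beta branch, had 465 to 509 in wild-type and 428 to 464 in Mbd2-/- libraries, just without overlap, and was not called (-0.13, 95% interval -0.26 to 0.00). Smad6, which inhibits BMP receptors, had 33.0, 36.9, 32.8 and 52.1 in wild-type and 63.8, 50.3, 49.4 and 53.8 in Mbd2-/- libraries. Wild-type replicate 4 lay among the Mbd2-/- libraries, and the log2 fold change of 0.50 ± 0.17 (SE) had an adjusted p of 0.0459 by limma. That call was lost with edgeR, DESeq2, limma-voom, upper quartile scaling, no filter or the length trend removed, and without wild-type replicate 1, 2 or 3 or Mbd2-/- replicate 1 or 2.

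Smad4, the partner shared by both branches, was the most strongly expressed Smad per length (19.5 ± 0.13 RPKM in wild-type, 19.9 ± 0.73 in Mbd2-/-), ahead of Smad3 (18.8 ± 0.49 and 15.7 ± 0.49) and Smad2 (13.4 ± 0.52 and 12.1 ± 0.48; SD, n = 4). The log2 fold change of Smad4 was 0.04, with a 95% interval of -0.07 to 0.16. The BMP effectors Smad1 (0.02), Smad5 (0.09) and Smad9 (-0.08) and the inhibitory Smad7 (-0.03) were not called either. Smad4, Smad7 and Smad2 lie on chromosome 18, like Mbd2, at 3013, 4741 and 5615 kb from it in mm9, and none of the 3 was called.

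**Figure D4:**
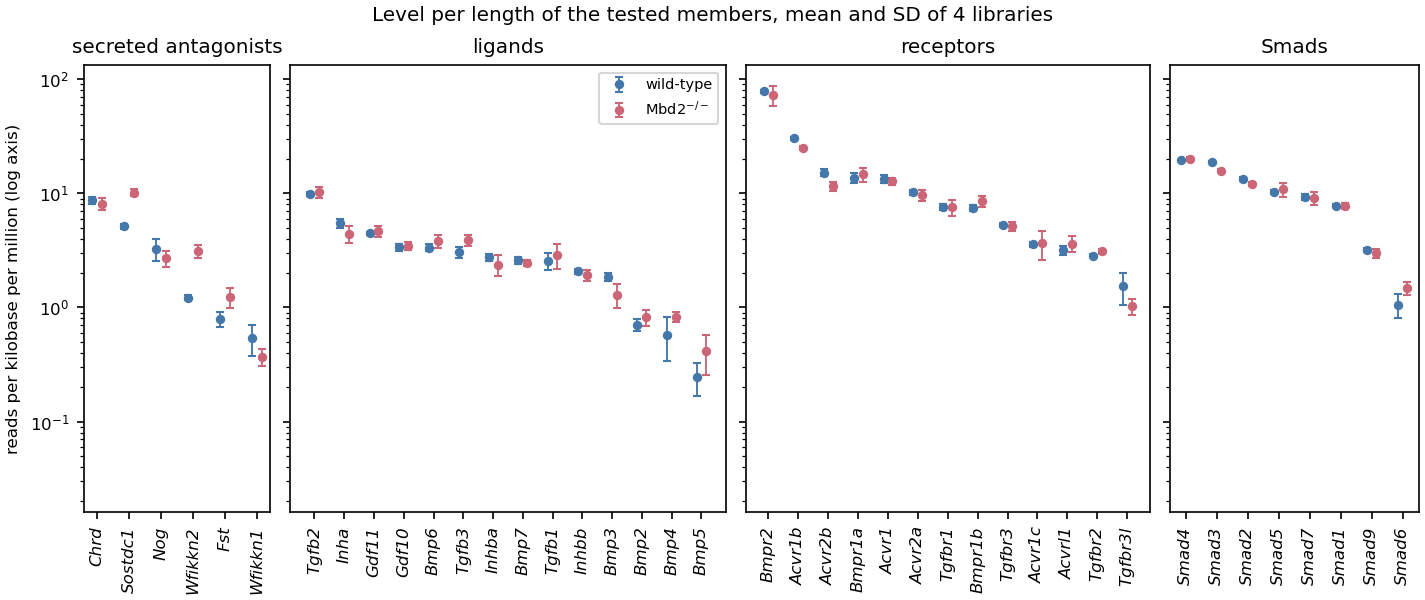
RPKM, computed over the longest transcript (y axis, log scale), of the tested antagonists, ligands, receptors and Smads, as mean and SD of 4 libraries in each genotype. Bmpr2 is highest in both genotypes at 78.5 and 73.3, and Wfikkn2 and Sostdc1 show the widest separation of the genotypes.

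Among the ligands, Tgfb3 was higher and Bmp3 lower. Tgfb3, a TGF-beta isoform, had 118, 144, 119 and 141 normalized counts in wild-type and 170, 145, 188 and 166 in Mbd2-/- libraries. The genotypes were separated by the narrow gap between 144 and 145, and the log2 fold change was 0.35 ± 0.10 (SE, adjusted p = 0.0236 by limma). Leaving out wild-type replicate 1 or 3 or Mbd2-/- replicate 1 or 3 ended the call.

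Bmp3, an atypical BMP that opposes other family members, had 67.4, 67.0, 80.2 and 77.0 in wild-type and 38.3, 60.4, 43.0 and 62.5 in Mbd2-/- libraries, without overlap. Its log2 fold change was -0.53 ± 0.16 (SE, adjusted p = 0.0278 by limma), and the call was lost without wild-type replicate 3 or 4 or Mbd2-/- replicate 1 or 3. Tgfb2 was the most strongly expressed ligand per length, at 9.86 ± 0.38 RPKM (SD, n = 4) in wild-type and 10.2 ± 1.23 RPKM in Mbd2-/- hippocampi, and was not called (log2 fold change 0.06, 95% interval -0.10 to 0.22). The inhibin alpha subunit gene Inha (5.48 ± 0.49 and 4.45 ± 0.77 RPKM) and Gdf11 (4.46 ± 0.13 and 4.67 ± 0.53 RPKM), a ligand that Wfikkn2 binds, came next and were not called (-0.30, -0.57 to -0.02 for Inha, and 0.07, -0.11 to 0.25 for Gdf11). The positive end of the members that were not called was held by Bmp5 (0.69, 95% interval 0.00 to 1.37), which had 7.29 to 15.8 normalized counts in wild-type and 9.56 to 25.9 in Mbd2-/- libraries. It was called without Mbd2-/- replicate 3 (log2 fold change 0.99).

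The 10 members that did not enter the test were all ligands with 0 to 15 recovered reads per library. They were Gdf9 (5 to 15 reads), Gdf5 (3 to 13), Gdf7 (1 to 15), Gdf15 (1 to 9), Bmp15 (1 to 4), Bmp8b (0 to 7), Gdf6 (0 to 5), Bmp8a (0 to 3), Inhbc (0 to 2) and Inhbe (0 to 1). Changes in these genes were not detectable at this depth, and the similar genes Bmp8a and Bmp8b may share reads. Myostatin, the other ligand of Wfikkn2, is not a member by symbol and was also too low to be tested. Of the 35 members that were tested and not called, log2 fold changes ran from -0.51 (Tgfbr3l) to 0.69 (Bmp5). Their 95% intervals lay within 0.5 of 0 on the log2 scale for 26 and within 0.3 for 18.

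Of the 4 other genes with a matching symbol, Bmp1 was called. It encodes a metalloprotease that processes procollagen and cleaves chordin, and it had 463, 461, 453 and 427 normalized counts in wild-type and 336, 403, 398 and 405 in Mbd2-/- libraries, without overlap. Its log2 fold change of -0.23 ± 0.07 (SE) had an adjusted p of 0.0345 by limma, which was lost with the length trend removed, without any 1 of the wild-type libraries and without Mbd2-/- replicate 1 or 2. Tgfbrap1 (11.4 ± 0.56 and 10.6 ± 0.37 RPKM, log2 fold change -0.10), which encodes a protein that associates with TGF-beta receptors, the kinase gene Bmp2k (5.14 ± 0.25 and 4.77 ± 0.29 RPKM, -0.09) and Tgfb1i1 (0.17), which encodes a focal adhesion protein, were not called.

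A list of 65 further genes of the pathway was examined, from latency proteins to target genes, and 52 entered the test. Of these, 4 were higher and 8 lower (23.1% called, beside 22.0% of all tested genes), with a median log2 fold change of 0.01. The higher ones numbered 2 without wild-type replicate 1, 3 or 4 or Mbd2-/- replicate 2 (8.07% to 8.48% of all genes higher) and 8 without Mbd2-/- replicate 4 (17.9%), and the lower ones 5 without wild-type replicate 1 (5.98% of all genes lower). Among the 14 tested targets 3 were higher and 0 lower (21.4% called), beside 12.0% higher and 10.0% lower of all tested genes. Id2 had 630, 640, 665 and 579 normalized counts in wild-type and 898, 796, 843 and 880 in Mbd2-/- libraries, without overlap (log2 fold change 0.44 ± 0.06 SE, adjusted p = 2.59e-04 by limma). Id3 had 411, 425, 428 and 416 against 632, 570, 775 and 482, also without overlap (0.53 ± 0.11 SE, adjusted p = 0.00285 by limma). With the trend over transcript length removed, the log2 fold changes were 0.24 for Id2 and 0.33 for Id3. Id2 and Id3 encode inhibitors of helix-loop-helix transcription factors that BMPs induce. Their sister Id1 just missed the threshold (0.32, adjusted p = 0.0502 by limma), and Id4 had a log2 fold change of 0.11. Id1 was called in 5 of 11 alternatives that kept every library, and with the length trend removed Id1 and Id4 lay at 0.10 and -0.04. Ctgf, a TGF-beta target that encodes a matrix protein, just missed the threshold on the lower side (-0.30, adjusted p = 0.0591 by limma, without overlap), and it was called lower with upper quartile scaling and with the length trend removed (-0.35). The target gene Pmepa1 went the other way and was not called (0.19, adjusted p = 0.0707 by limma, without overlap). Pmepa1 was called higher with the length trend removed (0.24) and without Mbd2-/- replicate 4. The homeobox gene Msx1, a BMP target, was higher (0.59, adjusted p = 0.0298 by limma), although its value in Mbd2-/- replicate 4 (50.9) lay within the wild-type range of 47.8 to 56.4.

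Of the 10 tested secreted modulators, 3 were lower and 1 was higher, beside 10.0% lower and 12.0% higher of all tested genes. The BMP antagonist gremlin 1 (Grem1) had 46.5, 37.6, 39.2 and 37.7 normalized counts in wild-type and 19.2, 20.1, 27.1 and 21.1 in Mbd2-/- libraries, without overlap (log2 fold change -0.86 ± 0.18 SE, adjusted p = 0.00357 by limma). Lower by less were Dcn (-0.51, adjusted p = 0.00687), a matrix proteoglycan that binds TGF-beta and is also on the meningeal list, and Vwc2l (-0.51, adjusted p = 0.0196). Dand5, a secreted inhibitor of nodal, was higher (0.39). Lower genes in other roles were the BMP co-receptor gene Rgmb (-0.27, adjusted p = 0.00416), the ubiquitin ligase genes Nedd4l (-0.26, adjusted p = 0.00277) and Smurf1 (-0.24, adjusted p = 0.0144), the Smad anchor gene Zfyve9 (-0.28, adjusted p = 0.00493) and Lrrc32 (-0.54), which encodes a protein that holds latent TGF-beta on the cell surface; the adjusted p-values are from limma. Hfe2, Tdgf1, Amhr2, Ltbp2, Nodal, Lefty2, Amh, Mstn, Cer1, Chrdl2, Fstl3, Sost and Msx2 did not reach the minimum mean. Among the called genes of this list, Msx1 and Lrrc32 kept the call in 1 of the 8 left-out cases, Dand5 in 2, and Vwc2l and Smurf1 in 6. With every library kept, Lrrc32 was called in 5 of 10 alternatives and Dand5 in 8 of 11, and Msx1 (adjusted p = 0.0581 by limma), Lrrc32 (0.0666), Smurf1 (0.104) and Dand5 (0.213) lost the call with the length trend removed. That alternative moved Nedd4l to -0.14, Zfyve9 to -0.18, Smurf1 to -0.16 and Dand5 to 0.24.

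**Figure D5:**
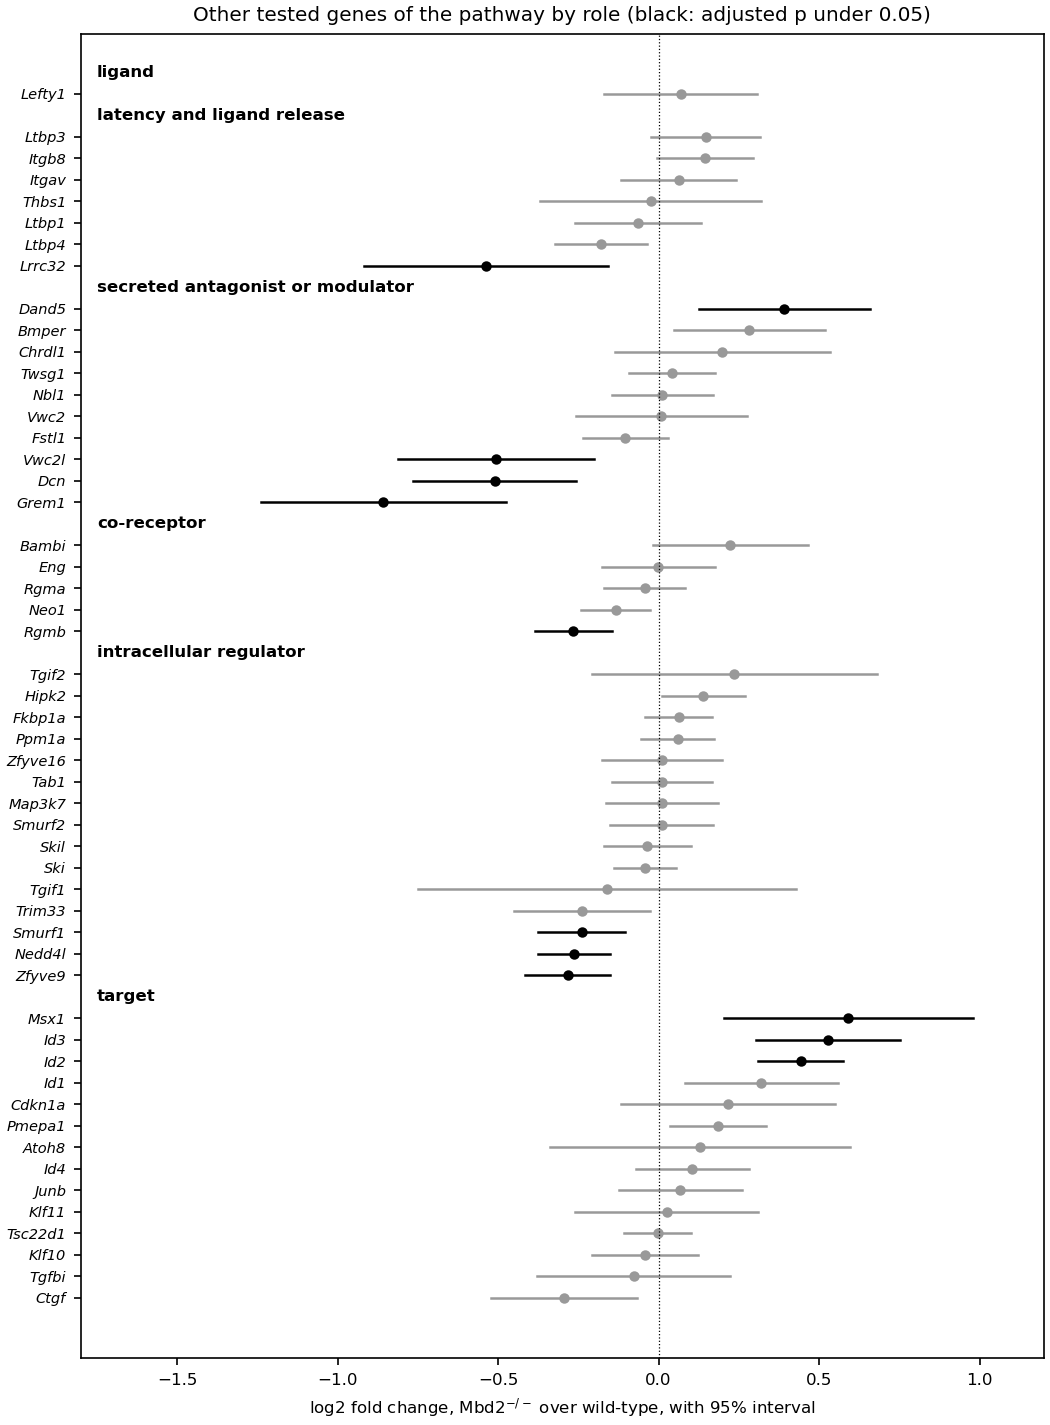
Log2 fold change of Mbd2-/- over wild-type (x axis) with its 95% interval for the 52 tested further genes of the pathway, grouped by role, with 4 libraries in each genotype. Black points mark an adjusted p under 0.05; the called targets Id2, Id3 and Msx1 lie at 0.44 to 0.59 and the called modulators reach from -0.86 (Grem1) to 0.39 (Dand5).

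Over the 8 libraries, the member or pathway gene whose log2 level followed Wfikkn2 most closely was Sostdc1 (Pearson's r = 0.97), followed by Id2 (0.91), Fst (0.87), Bmper (0.86) and Id3 (0.81), out of 96 genes compared. The 8 libraries fall into 2 genotypes, so a difference between genotypes enters each r, and the values are descriptive.

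Direction of change went with transcript length in these libraries. Over all genes the median longest transcript was 1856 bases for those called higher and 4974 bases for those called lower. The longest transcript in GENCODE vM1 is 3516 bases for Wfikkn2, 1751 for Sostdc1, 3277 for Acvr1b, 1729 for Acvr2b and 5090 for Smad3. The removal of the trend rests on these lengths, and the annotation behind the counts is not given. With the trend over transcript length removed, the log2 fold changes were 1.36 for Wfikkn2, 0.86 for Sostdc1, -0.27 for Acvr1b, -0.51 for Acvr2b and -0.16 for Smad3, and these 5 remained called. The members called then were 7 higher and 5 lower of 45, while of all genes 14.8% were called, 7.97% higher and 6.85% lower. Bmpr1a, Bmpr1b, Tgfbr2, Smad5 and Inha were called only in that case or, for Inha, also without Mbd2-/- replicate 3. The part of transcript length in the differences was not tested.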

How the data were processed

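Total hippocampal RNA was depleted of ribosomal RNA with RiboMinus and sequenced on a HiSeq instrument, with 100 bases read from both ends. The authors removed duplicate reads, aligned to mm9 with STAR and compared genotypes with DESeq2. Versions, annotation and the counting tool are not given in the sources used here. Per library, the deposited signal consists of normalized counts, the reads on a gene divided by a size factor, and 100% of values were whole multiples of 1 read to within 0.01, so reads were recovered. Depth sets counting error only. The deposited columns of the authors' own comparison were not used.

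Members and lists were chosen with earlier results of these data known. Genotype was tested with limma 3.58.1 (R 4.3.3; trend, robust) on log2(normalized count + 1) for genes with a mean of at least 10, and a fold change on this scale understates that of low genes. p-values measure the spread between pools. Symbols were matched to GENCODE vM1 on mm9 (18097 of 19201), and RPKM uses the longest transcript. Named are Wfikkn2, all called members, the 3 highest per role by RPKM, untested members, called pathway genes, defining markers and Mbd2; genes outside this rule were chosen after their values were seen. Some genes of the pathway list are not reported here. Replicate numbers do not pair the pools, so the fit was unpaired. Alternatives were edgeR 4.0.16, DESeq2 1.42.0, limma-voom, 2 scalings, 2 pseudocounts, 2 filters, a replicate block, removal of a length trend, a minimum change of 1.2-fold and each library left out.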

Additional observations from a re-analysis of the deposited data

Results flagged for a closer look

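Of 92 groups of 4 libraries examined (both genotypes of the tested members and Mbd2), 8 had a single library whose distance from the nearest other exceeded Dixon's critical value for the group's range, and chance alone gives about 1 in 20. In Mbd2-/- libraries these were Wfikkn2 in replicate 1 (112 normalized counts, others 146 to 153), Smad3 in replicate 1 (1053, others 1007 to 1015), Bmp1 in replicate 1 (336, others 398 to 405), Tgfb1i1 in replicate 3 (142, others 107 to 112) and Smad5 in replicate 4 (1097, others 838 to 854). In wild-type libraries they were Fst in replicate 4 (28.7, others 21.0 to 21.9), Acvr1c in replicate 3 (386, others 421 to 426) and Acvr1 in replicate 1 (627, others 530 to 540). Wfikkn2 and Smad3 were called with and without replicate 1 of Mbd2-/-, whereas Bmp1 was not called without it (adjusted p-values by limma). The cause was not tested.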

How the results depend on the processing

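Members called higher numbered 5, and 3 with DESeq2 (11.4% of all tested genes higher), 3 with a minimum mean of 50 (14.2%) and 2 with a minimum change of 1.2-fold (0.365%); leaving out 1 library gave 2 to 6 (8.07% to 17.9% of all genes higher). Members called lower numbered 5, and 0 with a minimum change of 1.2-fold (limma, where 0.159% of all genes were called lower), and 3 to 6 with 1 library left out (5.98% to 17.6% of all genes lower). For the further pathway genes the counts of 4 higher and 8 lower became 2 to 8 and 5 to 10 in the same left-out fits. Among the left-out fits, the lowest member counts came without wild-type replicate 1 or 3 (2 higher) and without wild-type replicate 3 or 4 or Mbd2-/- replicate 1 (3 lower). The log2 fold change of Mbd2 ran from -0.56 to -0.35 and was not called without wild-type replicate 3 (adjusted p = 0.0625 by limma), Mbd2-/- replicate 1 (0.0542) or Mbd2-/- replicate 2 (0.0579), and that of Wfikkn2 ran from 1.30 to 1.45 and stayed called. With the length trend removed, 6 members that were not called changed sign: Bmp2k from -0.09 to 0.025, Smad9 from -0.08 to 4.9e-04, Acvr2a from -0.07 to 0.018, Smad7 from -0.03 to 0.016, Tgfbr3 from -0.01 to 0.088 and Tgfbr1 from -0.0023 to 0.090. The cause of these shifts was not tested, except that a minimum mean of 50 leaves out Fst and Smad6 and that fewer libraries were fitted in the left-out cases. Same-numbered pools of the 2 genotypes correlated at -0.10, -0.06, 0.07 and 0.04 in their deviations from group means, which does not pair them; with the number as a replicate block the members stayed at 5 higher and 5 lower, the same 10 genes, Wfikkn2 at 1.35, and the further pathway genes came to 5 higher and 8 lower. The median of all genes moved by less than 0.1 (log2) under the other scalings. Members with few reads, such as Bmp5 and the untested ligands, are limited by depth.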
